A study of Mus musculus with 8 samples.

Results

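The secreted BMP antagonists Nog, Chrd, Chrdl1, Grem1, Bmper, Sostdc1 and Twsg1 were followed in mouse mandibular arches taken at embryonic day 11.5 (E11.5). They were taken as the probe sets annotated to exactly 1 of these symbols, 14 of the 45101 probe sets on the array, and they make up 7 of 18194 genes measured. The brightest probe set by its mean of the 8 arrays stands for its gene, and the others are given beside it. RNA came from 4 Wnt1-Cre;Alk5 fl/fl mutant arches and 4 Alk5 fl/fl control arches, all of the C57BL/6J strain, with the floxed alleles in both groups and the Wnt1-Cre driver named in the mutant labels alone. Alk5, or Tgfbr1, encodes the type I TGF-beta receptor. Wnt1-Cre acts in the neural crest lineage, so arch cells of other origin, such as epithelium, mesoderm-derived muscle precursors, endothelium and blood cells, keep the receptor. No control carried Cre alone, and effects of driver and deletion cannot be told apart. Sex was not determined by the authors, and the labels do not say whether the samples of a group came from different litters.

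Bone morphogenetic proteins (BMPs) are secreted ligands that bind type I and type II receptor kinases and pass their signal through Smad proteins. Secreted antagonists bind the ligands outside the cell and keep them from their receptors, which sets where and how strongly a BMP acts. Noggin and chordin are known from mice to be needed together for outgrowth of the lower jaw. Gremlin 1 and Sostdc1 belong to the DAN family of cysteine-knot proteins, and Chrd, Chrdl1 and Bmper carry chordin-type cysteine-rich repeats. Twsg1 encodes twisted gastrulation, which binds both chordin and BMPs.

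Sostdc1 was the only 1 of the 7 antagonist genes to pass the test, and it fell to 60.9% of the control level. The test was limma's moderated linear model over all genes, and "rose" or "fell" is used for a Benjamini-Hochberg adjusted p under 0.05. Over all genes the share called was 2.14%, with 0.835% higher and 1.31% lower in the mutants. The other 6 members did not pass, with log2 fold changes (mutant minus control) from -0.30 for Bmper to 0.11 for Chrdl1. Of the 7 fold changes, 6 were below 0, against 52% of all genes, and the median was -0.21, against -0.01 for all genes. In 2 members, Sostdc1 and Twsg1, every mutant array lay below every control array, where 7.02% of all genes did so. Both genes are brighter than the median, whereas that share covers dim genes too. In 0 members did every mutant array lie above every control array, as 3.27% of all genes did.

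**Figure D1:**
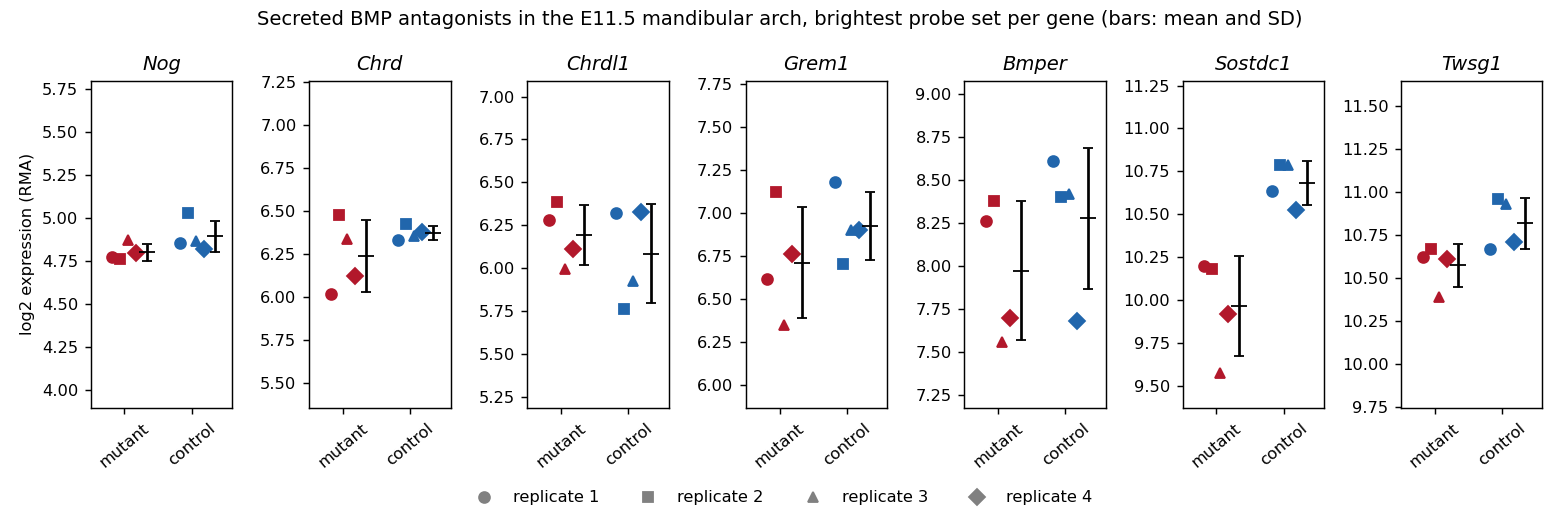
Deposited log2 expression of the brightest probe set of each antagonist gene on 4 mutant (red) and 4 control (blue) arrays, with the group mean and SD in black; every panel spans the same log2 range. Sostdc1 is the gene with a clear gap between the groups, whereas the Twsg1 groups nearly touch and those of the other 5 genes overlap.

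Before the members are described, the arrays are. Their median log2 values ran from 6.28 to 6.42. The array that stood apart was mutant replicate 3, whose SD over all probe sets was 2.42 against 2.52 to 2.56 on the other arrays and correlations with them of 0.986 to 0.991. Markers of arch mesenchyme such as Hand2, Dlx5 and Twist1 were bright, and the mean level of those 8 genes was 10.98 to 11.24 in mutants and 11.15 to 11.37 in controls. None of the 8 passed, 6 had fold changes below 0, and the median log2 fold change was -0.20. In 4 of them (Prrx1, Twist1, Msx1 and Hand2) every mutant lay below every control, as in 7.02% of all genes, a share that covers dim genes too. The mean of 6 Hox genes of the more posterior arches was 5.60 to 5.87 in mutants and 5.38 to 5.63 in controls, and 1 of them, Hoxb2, rose (0.83, limma adjusted p = 0.0104). The 3 probe sets of Tgfbr1 had log2 fold changes above 0 (0.19 for the brightest, whose groups did not overlap, 0.51 and 0.30), and whether they lie in the deleted part is not known here. The brightest did not pass (limma adjusted p = 0.232) except with trend and robust variance (0.0282). Of 10 macrophage markers, 9 rose and 1 did not pass, with a mean level of 8.02 to 8.51 in mutants and 7.13 to 7.28 in controls. Of 7 neuronal and glial markers, Tubb3 fell (-1.67, limma adjusted p = 0.0126) and 6 did not pass, with a mean level of 7.24 to 7.45 in mutants and 7.53 to 7.96 in controls. No marker of endothelium, erythroid cells, muscle precursors or pharyngeal endoderm passed. The part of these cell types in the results below was not tested. In bulk tissue, fewer cells of a type and less RNA per cell cannot be told apart.

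Sostdc1 encodes a secreted protein, also called ectodin or Wise, that binds BMPs and also interferes with WNT signalling at the co-receptor LRP6. In mice it is known for limiting the number and size of teeth. Its brightest probe set (1449340_at) read 10.20, 10.18, 9.58 and 9.92 in mutant replicates 1 to 4 and 10.63, 10.79, 10.79 and 10.52 in control replicates 1 to 4. The highest mutant lay 0.33 log2 units below the lowest control, and mutant replicate 3 was the lowest array. The mean was 9.97 ± 0.29 in mutants and 10.68 ± 0.13 in controls (SD, n = 4 each). The log2 fold change of Sostdc1 was -0.71 ± 0.14 (SE), with a 95% interval from -1.03 up to -0.40 (limma adjusted p = 0.0349). As a linear ratio the mutant level was 0.609 of the control level, with an interval of 0.491 to 0.757. By size of change Sostdc1 stood at the 98.2 percentile of all genes.

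The second Sostdc1 probe set (1460250_at) went the same way. It read 8.93, 8.81, 8.40 and 8.56 in mutants and 9.23, 9.20, 9.39 and 9.12 in controls, again with no overlap and with mutant replicate 3 lowest. Its log2 fold change was -0.56 ± 0.12 (SE). Both probe sets gave an exact permutation p = 0.0286 (two-sided), which is the smallest possible with 70 label assignments. Adjusted over all 45101 probe sets, of which 0.845% were called, neither passed with limma (adjusted p = 0.0539 for the brighter and 0.0770 for the other).

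The Sostdc1 call depended on the arrays used. Its direction could not reverse when 1 array was left out, since every mutant lay below every control. Leaving out 1 array at a time gave log2 fold changes from -0.79 to -0.58, and the call was lost without control replicate 1 (limma adjusted p = 0.0901), control replicate 2 (0.131), control replicate 3 (0.133) or mutant replicate 4 (0.116). Without mutant replicate 3, the array that stood apart, the fold change was -0.58 and the adjusted p = 0.0207. Over the 15 alternatives the adjusted p ranged from 0.00473 to 0.133. Oral and surface epithelium is a known site of Sostdc1, so its markers were read beside it. Of the markers, 0 of 9 passed, and their median log2 fold change was -0.23. Their mean level was 9.11 to 9.82 in mutants and 9.63 to 9.94 in controls. The low end, 9.11, was mutant replicate 3 alone, and the other mutants lay within the control range. The most different of the markers, Krt14, was at -0.81 ± 0.30 (SE, limma adjusted p = 0.267). The part of the epithelium in the Sostdc1 result was not tested.

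**Figure D2:**
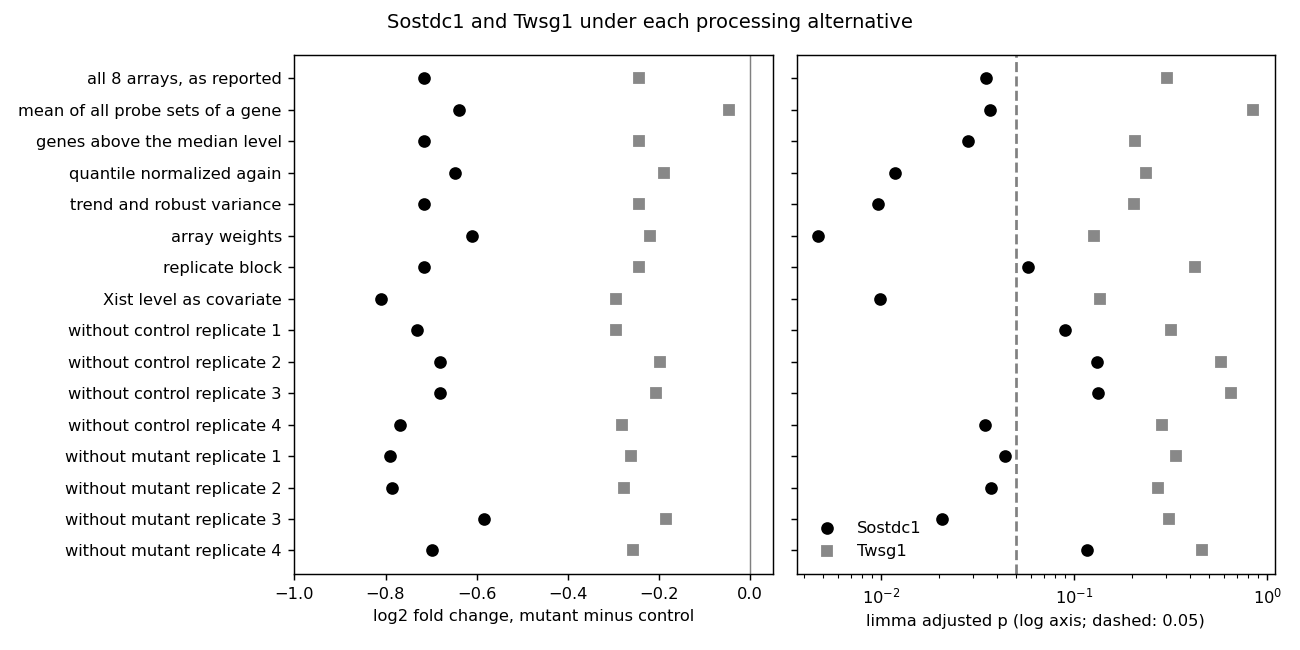
Log2 fold change (left) and limma adjusted p on a log axis (right) of Sostdc1 (black circles) and Twsg1 (grey squares) with all 8 arrays and under each of 15 alternatives. Sostdc1 stays between -0.81 and -0.58 but crosses the dashed threshold of 0.05 in 5 alternatives, and Twsg1 lies right of the threshold throughout.

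Grem1, the other DAN-family member of the group, is best known for keeping BMP activity low in the limb bud and kidney bud so that they can grow out. Its probe set was dimmer than the median, at the 40.4 percentile of all genes by mean signal. It read 6.61, 7.12, 6.35 and 6.76 in mutants and 7.18, 6.70, 6.90 and 6.90 in controls. The groups overlapped, since mutant replicate 2 lay above 3 of the 4 controls. Its log2 fold change was -0.21, and the 95% interval ran from -0.57 to 0.15 (limma adjusted p = 0.648), so a change to 0.673 or to 1.11 of the control level lay at the ends of what these arrays allow.

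Nog encodes noggin, which wraps around a BMP dimer and covers its receptor-binding surfaces. Its single probe set was dim, at the 14.0 percentile of all genes by mean signal, and array values of dim probe sets understate differences. It read 4.77, 4.76, 4.87 and 4.80 in mutants and 4.86, 5.03, 4.87 and 4.82 in controls. Every mutant lay below the control mean, but the groups overlapped. The log2 fold change of Nog was -0.09 with an interval from -0.25 up to 0.07 (limma adjusted p = 0.655).

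Among the chordin-type members, Chrd encodes chordin itself, which holds BMPs in an inactive complex until tolloid proteases cleave it. Chrd read 6.02, 6.48, 6.34 and 6.12 in mutants and 6.33, 6.43, 6.35 and 6.38 in controls. The mutants spread on both sides of the controls (SD 0.208, n = 4), which lay close together (SD 0.0409, n = 4). Its log2 fold change was -0.13 with an interval from -0.36 up to 0.10 (limma adjusted p = 0.651).

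Chrdl1 encodes chordin-like 1, also called ventroptin or neuralin, a BMP4 antagonist of the eye and nervous system. It was the single member with a fold change above 0. The brightest of its 4 probe sets (1456722_at) read 6.28, 6.39, 6.00 and 6.11 in mutants and 6.32, 5.76, 5.92 and 6.33 in controls, with overlap. Its log2 fold change was 0.11 with an interval from -0.22 up to 0.43 (limma adjusted p = 0.795). All 4 probe sets had fold changes above 0 and overlapping groups. The widest difference, 0.42 for 1434201_at, came with values that ran from 5.66 to 6.02 in mutants and, more widely, from 4.88 to 6.04 in controls (exact permutation p = 0.257). Without control replicate 2, the lowest control, the fold change of Chrdl1 was 0.00.

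Bmper encodes the vertebrate crossveinless 2 protein, which binds BMPs at the cell surface and can lower or raise their activity depending on context. It read 8.27, 8.38, 7.56 and 7.70 in mutants and 8.61, 8.40, 8.42 and 7.68 in controls. Control replicate 4 lay among the mutants, below all but mutant replicate 3, and the 3 other controls lay above every mutant. The spread within each group was the widest of the 7 genes, with an SD of 0.407 in mutants and 0.409 in controls (n = 4 each). The log2 fold change was -0.30 with an interval from -0.83 up to 0.22 (limma adjusted p = 0.654). Without control replicate 4 it was -0.50 (adjusted p = 0.316), and without mutant replicate 3 it was -0.16 (adjusted p = 0.800).

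Twsg1 is known from mutant mice to be required for normal growth of the jaw. Its brightest probe set (1450388_s_at) read 10.62, 10.67, 10.39 and 10.61 in mutants and 10.67, 10.96, 10.93 and 10.71 in controls. The groups did not overlap, but the highest mutant and the lowest control were only 0.004 log2 units apart. The log2 fold change was -0.24 with an interval of -0.46 to -0.03, and it did not pass (limma adjusted p = 0.301). The 3 dimmer Twsg1 probe sets did not share this difference: 1421832_at was at -0.10, 1426179_a_at at -0.01 and 1426073_at at 0.17, all with overlapping groups. Over the mean of its 4 probe sets Twsg1 was at -0.05 (limma adjusted p = 0.845).

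**Figure D3:**
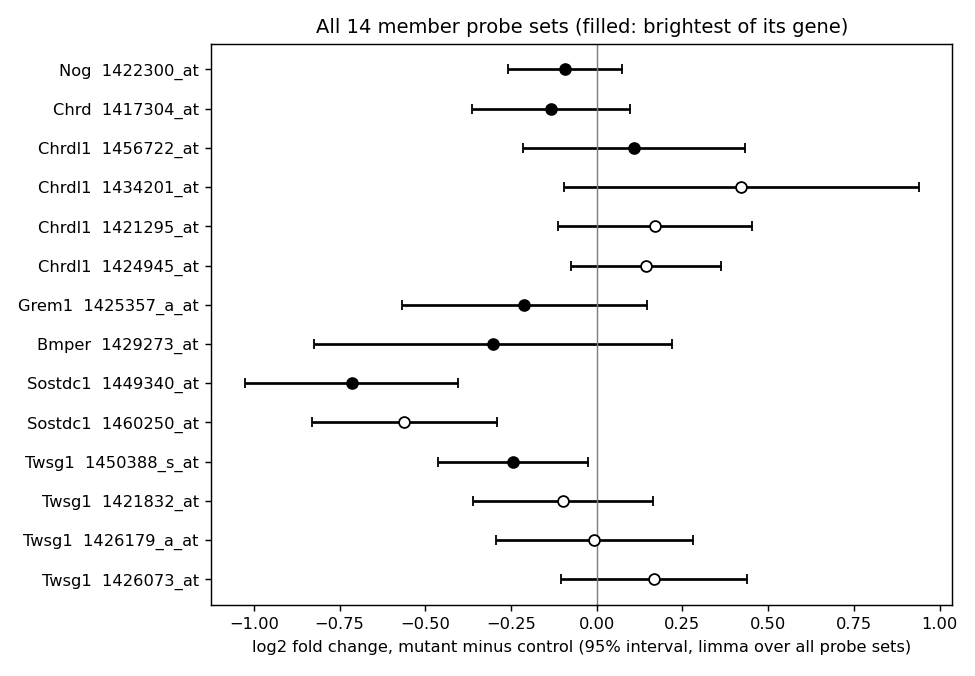
Log2 fold change (mutant minus control) with its 95% interval for all 14 probe sets of the 7 genes, from limma over all probe sets; filled points are the brightest probe set of each gene. The 2 Sostdc1 probe sets and the brightest Twsg1 probe set have intervals below 0, and the 4 Chrdl1 probe sets all lie above 0 with intervals that cross it.

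Some members also varied together inside the groups. After subtracting each group's mean, Sostdc1 correlated with Twsg1 at r = 0.82 and with Bmper at r = 0.79 over the 8 arrays. Without mutant replicate 3, in which all 3 genes were at their lowest mutant value, the values were 0.70 and 0.79 over 7 arrays. Nog and Chrdl1 went opposite ways (r = -0.85, and -0.82 without that array). Over the 8 arrays these are the most extreme of 21 pairs. Without mutant replicate 3, the correlation of Chrdl1 with Twsg1 was stronger than any of them (r = -0.85, against -0.37 over all 8). The values are given as a description, since all genes of an array share its RNA and its normalization. Nog is also dim, and its values differed little inside the groups (SD 0.0505 in mutants and 0.0927 in controls, n = 4 each).

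**Figure D4:**
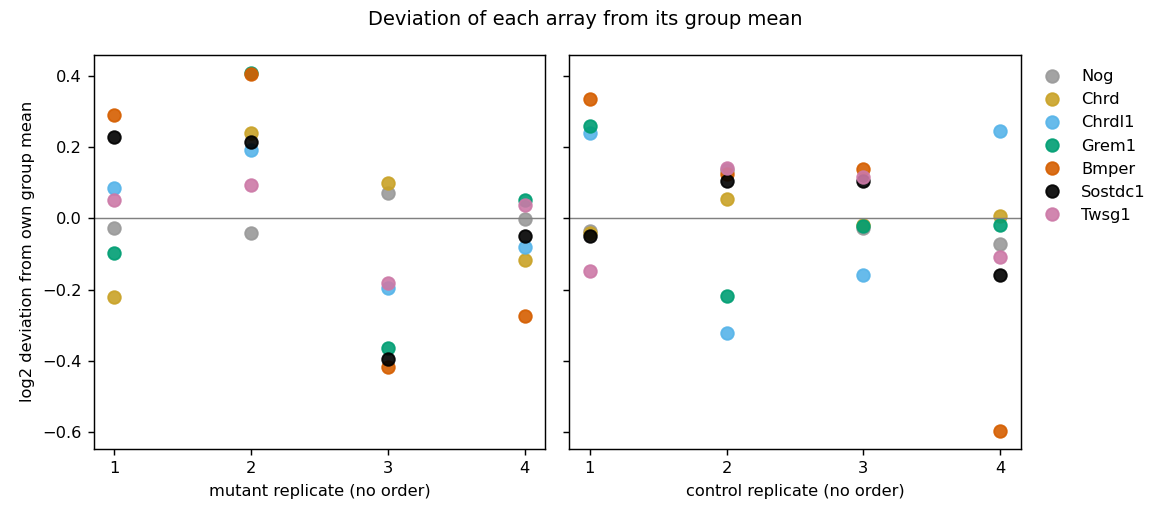
Deviation of each array from its own group's mean (log2 units) for the 7 genes, mutants on the left and controls on the right. In mutant replicate 3 Sostdc1, Bmper, Grem1, Twsg1 and Chrdl1 lie below 0 and Nog and Chrd above it, and in control replicate 4 Bmper lies farthest below its group's mean.

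The promoters of Twsg1 and Bmper, the genes whose array-to-array deviations followed those of Sostdc1, are shown for context. Of the 7 members, 4 (Chrd, Grem1, Bmper and Twsg1) had a promoter in the RefSeq table (GRCm38.p6), which holds 250 bases before to 50 after the start of the gene. Capitals mark CAGAC, the core of the element that Smad3 and Smad4 bind, and GGCGCC, a GC-rich sequence that BMP Smads bind, searched on both strands, and no 2 matches share a base in these windows. The sequences run 5′ to 3′ on the strand of the gene.
Twsg1 (chr17:65951138-65951437, minus strand): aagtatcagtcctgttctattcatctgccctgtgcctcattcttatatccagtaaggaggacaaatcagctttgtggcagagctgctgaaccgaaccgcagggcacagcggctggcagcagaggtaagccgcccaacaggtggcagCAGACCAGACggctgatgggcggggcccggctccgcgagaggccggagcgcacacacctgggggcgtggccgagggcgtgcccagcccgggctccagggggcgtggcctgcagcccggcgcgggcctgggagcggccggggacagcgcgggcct
Bmper (chr9:23222826-23223125, plus strand): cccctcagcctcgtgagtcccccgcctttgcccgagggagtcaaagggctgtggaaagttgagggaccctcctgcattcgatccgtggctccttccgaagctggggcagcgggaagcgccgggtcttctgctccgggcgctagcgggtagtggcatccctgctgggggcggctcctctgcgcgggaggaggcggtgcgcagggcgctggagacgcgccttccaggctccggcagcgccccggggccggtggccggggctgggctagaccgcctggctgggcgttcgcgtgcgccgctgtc
The Twsg1 window held CAGAC at 2 places next to each other, at bases -104 and -99 from the start. The Bmper window held neither motif, which says only that these letters are not in this window. Chrd had 1 and Grem1 2 copies of CAGAC, and each had 1 copy of GGCGCC. Among 32851 promoters of the same length, 49.6% held CAGAC and 11.9% held GGCGCC, so these matches are a description of the sequence and not of a binding site. The longer palindrome GTCTAGAC was in 0.213% of promoters and in none of the 4.

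The genes whose levels over the 8 arrays were most like each member, among up to 9097 genes brighter than the median, are given as a description. For Sostdc1 these were Kcnmb4 and Acot7 (r = 0.997 for both), and 817 genes exceeded r = 0.9. For Twsg1 they were Megf6 (0.989) and Slc44a2 (0.986), with 390 genes above 0.9. Cep112 (0.992) and Gpm6b (0.989) were closest to Bmper, with 95 above 0.9, and St8sia1 (0.974) and Zxdb (0.962) to Grem1, with 22. Of the remaining members, Chrdl1 had 11 genes above 0.9 (Tshz1 at 0.957 and Zadh2 at 0.944). Nog had 4 (Glis1 at 0.945 and Atp5k at 0.912), and Chrd had 3 (Vps13d at 0.960 and Qsox1 at 0.938). Group means were not subtracted here, so the group difference and the values of mutant replicate 3 enter each r. Such counts were not made for genes outside the group, so they are not read as a contrast between members.

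The rest of the BMP pathway was read from lists of its ligands, receptors, Smads, targets and other extracellular modulators, of which 52 genes were measured. Of those, 2 rose and 3 fell, and 47 did not pass, against the 2.14% of all genes called. Their median log2 fold change was -0.07. In 2 of the 5 called genes the product is itself a secreted antagonist, and both were lower in the mutants. The share over all genes includes dim ones. With only genes above the median level fitted, 7 of 32 pathway genes and 313 of 9097 genes were called, with medians of -0.17 and -0.05. The lists were chosen with earlier results of these data known, so the shares are a description.

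Of 14 other secreted BMP modulators measured, 12 did not pass while Nbl1 and Fst fell, and the median log2 fold change was -0.04. Nbl1, the founding member of the DAN family to which Sostdc1 and Grem1 belong, read 9.10, 9.20, 8.85 and 8.90 in mutants and 9.43, 9.56, 9.50 and 9.77 in controls. The groups did not overlap, and Nbl1 changed by -0.55 ± 0.10 on the log2 scale (SE, limma adjusted p = 0.0321). When 1 array was left out, its call was lost without control replicate 1, 2 or 3 or mutant replicate 1 or 4, with adjusted p up to 0.114. Grouped by family after their values were seen, 6 DAN-family genes were measured: Sostdc1 and Nbl1 fell, and Grem1 (-0.21), Dand5 (-0.05), Sost (-0.03) and Cer1 (0.01) did not pass. Fst, which encodes the activin and BMP binding protein follistatin, read 8.36, 8.98, 8.59 and 7.82 in mutants and 10.29, 10.25, 10.35 and 9.45 in controls, with control replicate 4 the lowest control. It lost its call without control replicate 1, 2 or 3 (adjusted p up to 0.0695).

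On the ligand side, 1 of 10 genes passed: Bmp4, which Nog, Chrd and Grem1 are known to bind, read 10.42, 10.56, 9.82 and 10.16 in mutants and 11.29, 11.67, 11.53 and 11.10 in controls. The Bmp4 groups did not overlap, and the call was lost without control replicate 2 or 3 or mutant replicate 4 (limma adjusted p up to 0.0566). Bmp2 did not pass (limma adjusted p = 0.0549), but at -1.15 it lay close to Bmp4 at -1.16. In 3 of the 10 ligands, Bmp2, Bmp4 and Bmp7 (-0.35), the groups did not overlap, as in 10.3% of all genes. Of the 10 ligands, 6 had log2 fold changes below 0. Of 10 receptors and co-receptors, the type I receptor gene Bmpr1b and the type II receptor gene Acvr2b rose. In 4 of these 10 the groups did not overlap, as in 10.3% of all genes. Of the 4, Bmpr1b and Acvr2b were higher in the mutants, and Acvr1 (-0.40) and Acvrl1 (-0.28) were lower. Bmpr1b lost its call without control replicate 3 or mutant replicate 4 (adjusted p up to 0.0679) and Acvr2b in 8 of 15 alternatives (up to 0.155). None of the 3 tolloid-type proteases that cleave chordin passed, and Bmp1 had the smallest p (-0.30 ± 0.09, SE, limma adjusted p = 0.166). None of 4 Smads passed either, with Smad1 at -0.16 (adjusted p = 0.361). Of 11 feedback and target genes none passed. In 6 of them the groups did not overlap, with the mutants lower, as in 7.02% of all genes. The 11 genes had mean levels of 9.13 or above, whereas that share covers dim genes too. Among them Msx1 had the smallest p, at -0.58 ± 0.14 (SE, limma adjusted p = 0.0675).

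**Figure D5:**
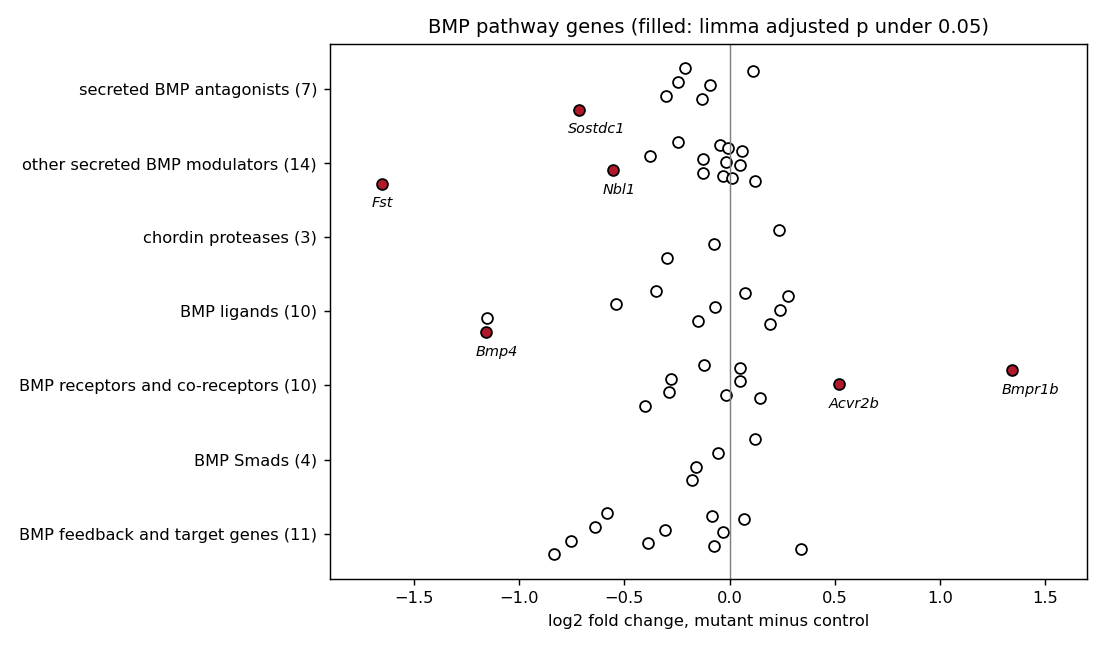
Log2 fold change (mutant minus control) of the 7 antagonist genes and of 52 other BMP pathway genes by list, with the number measured in parentheses; filled points passed limma at an adjusted p under 0.05 and are named. Filled points among secreted modulators (Sostdc1, Nbl1, Fst) and ligands (Bmp4) lie below 0, and those among receptors (Bmpr1b, Acvr2b) above it.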

How the data were processed

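Total RNA was labelled with biotin by the Affymetrix procedure, per the labels' protocols. The authors deposited log2 values per probe set made with RMA, per the submitters' processing notes, and its version, a genome build and detection calls are not given in the sources used here. It corrects background, equalizes array distributions and summarizes probes, and it compresses differences of dim probe sets. The platform annotation listed 1 symbol for 34958 probe sets, several for 932 and none for 9211, and the last 2 kinds were not named.

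Each gene was represented by its brightest probe set. The groups were compared with lmFit and eBayes of limma 3.58.1 under R 4.3.3, without covariates, adjusted by Benjamini-Hochberg over 18194 genes. Single probe sets were also tested by exact permutation. Named genes were all members, of each BMP pathway list the genes that passed (or the 1 with the smallest p), the 2 genes most like each member by Pearson's r, and Tgfbr1. Bmp2, Bmp7, Acvr1 and Acvrl1 were named after their values were seen. Other cell type markers were described by list, and those named singly and the DAN-family grouping were chosen after values were seen. The members and lists were chosen with earlier results of these data known. With no statement of separate embryos or litters in the labels, p-values cover the sample-to-sample spread alone, some of it possibly technical, and the number of arrays limits the precision.

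On simulated arrays over 18194 genes with 200 changed (5 runs), the fit recovered 46.0%, 88.7% and 99.4% of genes with log2 changes of 0.5, 1 and 2, and 4.65% of calls were false. The simulated noise was independent between genes and had the same spread on every array. Among the real arrays mutant replicate 3 stood apart, and genes of an array share its RNA and normalization, so these shares need not hold for them. Alternatives were the mean of probe sets, genes above the median level, quantile normalization, trend and robust variance, array weights, a replicate block, Xist as a covariate and leaving out each array.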

Additional observations from a re-analysis of the deposited data

How the results depend on the processing

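Sostdc1 kept its direction in all 15 alternatives and its call in 10, and it was the 1 antagonist gene called in each of those 10. With groups that did not overlap, its direction could not reverse when 1 array was left out. Trend and robust variance, the replicate block and the fit of genes above the median level leave every fold change as it was. The other 6 members kept their direction and passed in none of the alternatives run, 14 each for Nog, Chrd, Chrdl1 and Grem1, which are dimmer than the median, and 15 for Bmper and Twsg1. With the replicate number as a replicate block, Sostdc1 was at -0.71 with a limma adjusted p = 0.0577, so 0 members were called (at an unadjusted p under 0.05 without the block, Sostdc1 and Twsg1 were the 2), and Nbl1 (0.074) and Acvr2b also lost their calls. The numbers were not taken as pairs: deviations of same-numbered arrays correlated at 0.03, 0.00, -0.12 and 0.41, and a number was matched best by its own in 1 of 4. Leaving out 1 array at a time gave 0 to 1 members called, Sostdc1 from -0.79 to -0.58, 0 to 9 other BMP pathway genes called against 5, and 104 to 618 genes called against 390. Array weights called 1356 genes and 15 other BMP pathway genes, and gave mutant replicate 3 a weight of 0.108 against 0.949 to 2.80 for the rest. Trend and robust variance called 10 other BMP pathway genes, and quantile normalization 595 genes. Probe set by probe set, 0 of 14 were called over all probe sets and 1 (1449340_at of Sostdc1) over those with 1 symbol. The causes were not tested. Dim probe sets limit what can be seen for Nog, Chrd, Chrdl1 and Grem1.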
